A study of Rattus norvegicus with 125 samples.

Results

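The glomerulus is the filter at the head of the nephron, and its RNA was compared here with that of the tubule segments that follow it. The comparison rests on 5 libraries of hand-dissected rat glomeruli and 105 libraries of 14 tubule segments, out of 125 samples in the series. The members were taken by their labels: the 5 glomerulus columns and the 105 segment columns of 1 deposited expression table, with all genes it holds. The choice of this part and of the gene lists below was made with earlier results of these data known. A second deposited table of the same libraries was used for tubule values only. Of 17137 gene symbols, 11456 reached 1 RPKM (a read level per kilobase of transcript and library size) in at least 4 of the 110 libraries and were tested.

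All 110 libraries came from kidneys of male Sprague-Dawley rats, labelled adult and dissected by hand. The segments were the proximal tubule parts S1, S2 and S3 (n = 7 each), the descending thin limb of short loops (SDL, n = 10) and those of long loops in the outer (LDLOM, n = 9) and inner medulla (LDLIM, n = 4). Ascending limbs were the thin limb (tAL, n = 7) and the thick limb of medulla (mTAL, n = 7) and cortex (cTAL, n = 7). Downstream of these lay the distal convoluted tubule (DCT, n = 8), the connecting tubule (CNT, n = 6) and the collecting duct of cortex (CCD, n = 11), outer medulla (OMCD, n = 7) and inner medulla (IMCD, n = 8). Tubule rats weighed 200 to 250 g, their kidneys were digested with collagenase, and the labels name no drug. The glomerulus labels carry the animal and treatment text of the water-load experiment of the same series (ddAVP by minipump, with or without water loading), a text that names cortical collecting ducts and not glomeruli. That text gives an age of 5 weeks for the rats of the water-load experiment, and the tubule labels give no age in weeks. The age in weeks, weight, digestion and any treatment of the glomerulus rats are therefore not settled by the labels. Glomeruli were also submitted later than tubules, so tissue and submission cannot be told apart. The labels do not say whether libraries of a group came from different rats, so p-values rest on the spread of these libraries, which may be technical.

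A glomerulus is a tuft of fenestrated capillaries held together by mesangial cells and wrapped by podocytes, whose foot processes are bridged by the slit diaphragm. Capillary endothelium, a basement membrane made jointly by endothelium and podocytes, and the slit diaphragm together form the filter. Smooth muscle lies in the arterioles at its pole, and a flat parietal epithelium lines the capsule around it. Podocytes keep an unusual mix of epithelial and mesenchymal proteins, and many inherited forms of nephrotic syndrome are caused by mutations in genes that podocytes use.

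Promoters of 4 genes that mark the podocyte and the capillary endothelium are shown first, since their transcripts carry the contrast described below. Each is the 250 bases before and 50 bases after the RefSeq start of the gene, in build GRCr8, read 5′ to 3′ on the strand of the gene. Nphs1 encodes nephrin, the main adhesion protein of the slit diaphragm, and Wt1 encodes a zinc finger factor that keeps podocytes differentiated. In these, capitals mark CANNTG (the E-box, where N is any base), the core bound by helix-loop-helix factors such as Tcf21.
Nphs1, chr1:94848011-94848310, plus strand: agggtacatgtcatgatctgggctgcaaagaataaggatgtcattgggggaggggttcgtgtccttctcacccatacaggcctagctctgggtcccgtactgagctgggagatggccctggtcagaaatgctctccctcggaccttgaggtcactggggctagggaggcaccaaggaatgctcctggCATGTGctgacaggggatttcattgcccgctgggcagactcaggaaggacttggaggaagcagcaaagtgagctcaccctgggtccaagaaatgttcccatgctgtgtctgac
Wt1, chr3:112021759-112022058, plus strand: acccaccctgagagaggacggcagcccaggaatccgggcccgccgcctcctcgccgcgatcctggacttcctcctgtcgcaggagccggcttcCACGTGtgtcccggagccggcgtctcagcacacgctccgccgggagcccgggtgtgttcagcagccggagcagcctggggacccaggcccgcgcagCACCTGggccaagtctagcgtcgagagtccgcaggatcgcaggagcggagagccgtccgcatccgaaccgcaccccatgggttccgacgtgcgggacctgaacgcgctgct
Kdr encodes the main receptor for vascular endothelial growth factor, and Tie1 a second receptor kinase of endothelium. In these, capitals mark GGAA on either strand, the core bound by ETS factors such as Erg.
Kdr, chr14:32571813-32572112, plus strand: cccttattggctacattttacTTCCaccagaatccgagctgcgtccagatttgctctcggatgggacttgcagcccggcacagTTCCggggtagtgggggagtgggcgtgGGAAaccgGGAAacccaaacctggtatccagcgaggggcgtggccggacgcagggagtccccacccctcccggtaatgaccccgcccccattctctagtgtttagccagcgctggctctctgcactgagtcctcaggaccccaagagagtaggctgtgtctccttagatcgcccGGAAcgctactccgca
Tie1, chr5:137304932-137305231, minus strand: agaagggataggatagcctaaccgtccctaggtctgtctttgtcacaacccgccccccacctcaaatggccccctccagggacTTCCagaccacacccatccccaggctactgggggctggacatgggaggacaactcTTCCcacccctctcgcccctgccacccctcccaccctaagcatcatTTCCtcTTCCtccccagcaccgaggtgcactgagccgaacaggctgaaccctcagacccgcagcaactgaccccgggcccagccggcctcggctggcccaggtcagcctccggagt
The Nphs1 promoter held 1 match to CANNTG and that of Wt1 held 2, while the Kdr promoter held 5 matches to GGAA and that of Tie1 held 4. The motifs are common. CANNTG was found in 24131 of the 33469 promoters of the table (72.1%) and GGAA on either strand in 95.8%, and matches of the 2 motifs may overlap. Of 44 podocyte list genes called higher in glomeruli, 34 had a promoter in the table, and 19 of these (55.9%) held CANNTG. Of 29 endothelial genes called higher, 15 had one, and all 15 held GGAA. A match in such a window is a run of letters, not a tested binding site.

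Glomerulus libraries held more detected genes than any tubule library, and this bears on every count below. They had 8818 to 9483 genes at 1 RPKM or more (median 9298), and tubule libraries 1437 to 8573 (median 4623), with segment medians from 2869 in mTAL to 6748 in CCD. The deposited values hold no read counts. Relative depth, estimated from the steps between low values, was 0.144 to 0.252 in glomeruli (median 0.174) and 0.0893 to 1.31 over the 85 tubule libraries where it could be read (median 0.264), so the glomeruli lay within the tubule range. This estimate is indirect, and the part of depth in the number of detected genes was not tested. Over all tested genes, the median difference between glomeruli and the mean of the 14 segments was +1.32 on the log2(RPKM + 1) scale. After quantile normalization, which forces all libraries onto 1 distribution, it was -0.13. With each library's count of detected genes (log2) entered as a covariate, it was 0.28. In bulk samples, fewer cells of a type and less RNA per cell cannot be told apart. Several genes that every cell uses, such as Rps6, Rplp2 and Hprt1, are listed at 0 in the table, so a 0 is given below only as listed.

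**Figure D1:**
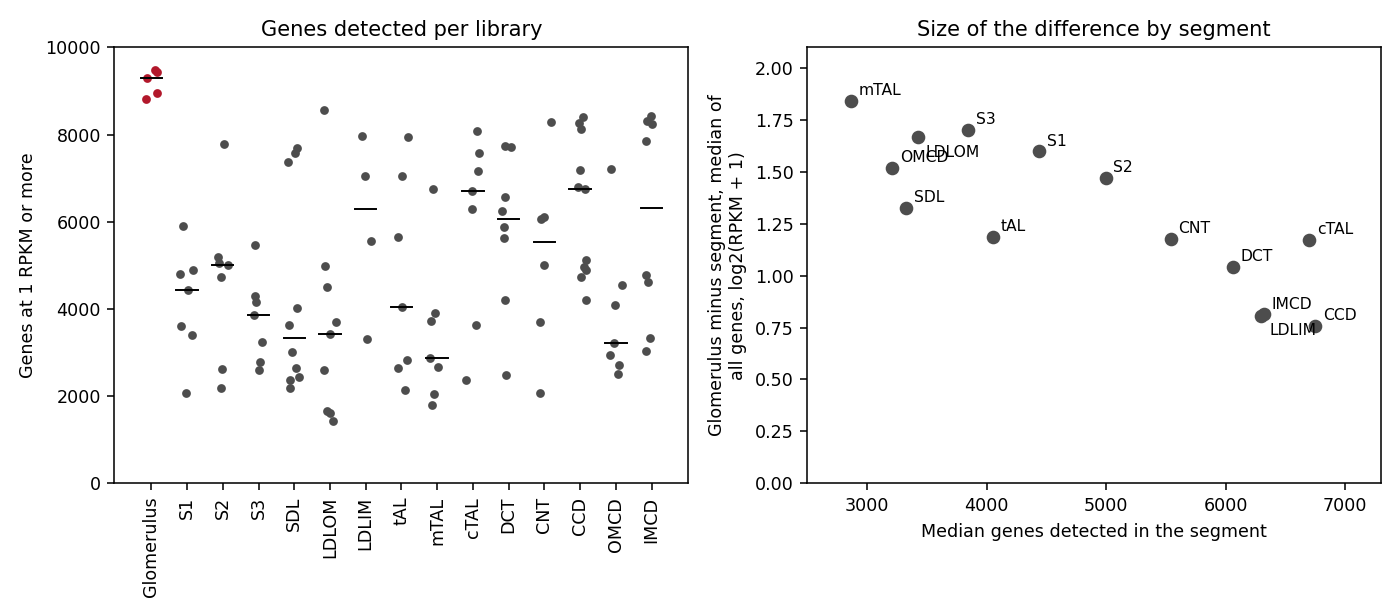
Left, genes at 1 RPKM or more in each library (points) with the group median (bar). Right, for each of the 14 segments, the median over 11456 genes of the glomerulus minus segment difference in log2(RPKM + 1) against the segment's median number of detected genes. All 5 glomeruli lie above all tubule libraries, and the median difference runs from 0.76 in CCD to 1.84 in mTAL.

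The size of the contrast followed the tubule side. Against single segments, 1632 genes (LDLIM) to 5531 genes (mTAL) were called higher in glomeruli. Across the 14 segments, the median difference and the median number of detected genes had a Pearson r of -0.84. It is given as a description, since all 14 share the same glomerulus libraries. Both quantities are also computed from the same tubule values, so a negative r follows largely from how they are built. For these reasons most counts below are given as deposited and after quantile normalization.

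With the values as deposited, 4319 of the 11456 tested genes (37.7%) were called higher in glomeruli and 136 (1.19%) lower, using limma's moderated test with Benjamini-Hochberg adjusted p under 0.05 and a difference of at least 1 in log2(RPKM + 1). Of the calls, 96.9% were therefore higher. After quantile normalization 1034 genes (9.03%) were higher and 609 (5.32%) lower, a share of 62.9% higher, and with detected genes as a covariate 1631 (14.2%) were higher and 369 (3.22%) lower, a share of 81.6%. In all 3 fits, 761 genes were higher and 114 lower. All 5 glomerulus libraries lay above all 105 tubule libraries for 174 genes (1.52%), and all 5 lay below them for 6 (0.0524%), of which 4 (0.0349%) were also called lower. A gene was called glomerulus-selective when it exceeded every one of the 14 segment means by at least 1, with all 14 adjusted p-values under 0.05. This held for 883 genes (7.71%), or 341 after quantile normalization. The reverse, a gene lowest in glomeruli against each segment, held for 5 genes (0.0436%). For 4 of these, the tubule means differ more than 4-fold between the 2 deposited tables. The count of lower genes fell whichever glomerulus was left out, to 87, 91, 74, 72 and 99 without glomeruli 1 to 5. That of higher genes fell as well, to between 3328 and 3494.

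Markers of the glomerulus were high in the libraries labelled so. Podxl encodes podocalyxin, the charged sialomucin that coats podocyte foot processes. It read 289, 300, 269, 234 and 181 RPKM in glomeruli 1 to 5, against a tubule median of 0.0399 and a highest tubule value of 189 in library 1 of tAL. The groups overlap through that 1 library (difference 7.33 ± 0.54 SE in log2(RPKM + 1), adjusted p = 1.2e-23). Pdgfrb, the platelet-derived growth factor receptor of mesangial cells and pericytes, read 56.0, 32.9, 41.8, 38.5 and 25.5 RPKM, all above the highest tubule value of 14.0. Mgp encodes matrix Gla protein, an inhibitor of calcification, and read 3834, 3954, 5665, 5331 and 5277 RPKM, again above all tubule libraries, the highest of which was SDL 7 at 2671.

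Marker genes of each cell type were summed per library, which gives no shares of cells. In glomeruli 1 to 5, 7 podocyte markers summed to 1065, 1256, 1131, 842 and 1050 RPKM, against a median of 0.293 and a maximum of 189 in tubules, with no overlap. That tubule maximum was in tAL 1, where Podxl alone read 189 RPKM. For 9 endothelial markers the glomeruli held 1997 to 3239 RPKM, and the tubules a median of 13.8. Tubule libraries tAL 1 and tAL 2 held 5578 and 3978, above every glomerulus. For 7 mesangial markers the glomeruli held 4405 to 6177 RPKM and the tubules at most 2672 (SDL 7), followed by 1934 in SDL 2. Mgp made most of this sum, with a glomerulus mean of 4812 RPKM against 5291 for all 7. In SDL 7 it read 2671 RPKM, and the endothelial sum there was 6.08. Epcam, an adhesion protein of tubule epithelium, was 0.344 RPKM in tAL 1 and 1.36 in tAL 2, against a tubule median of 218. Without tAL 1, tAL 2, SDL 2 and SDL 7, left out because their endothelial or mesangial sum exceeded 1000 RPKM, 4379 genes were called higher and 155 lower, and none of the 145 genes named here changed its call.

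**Figure D2:**
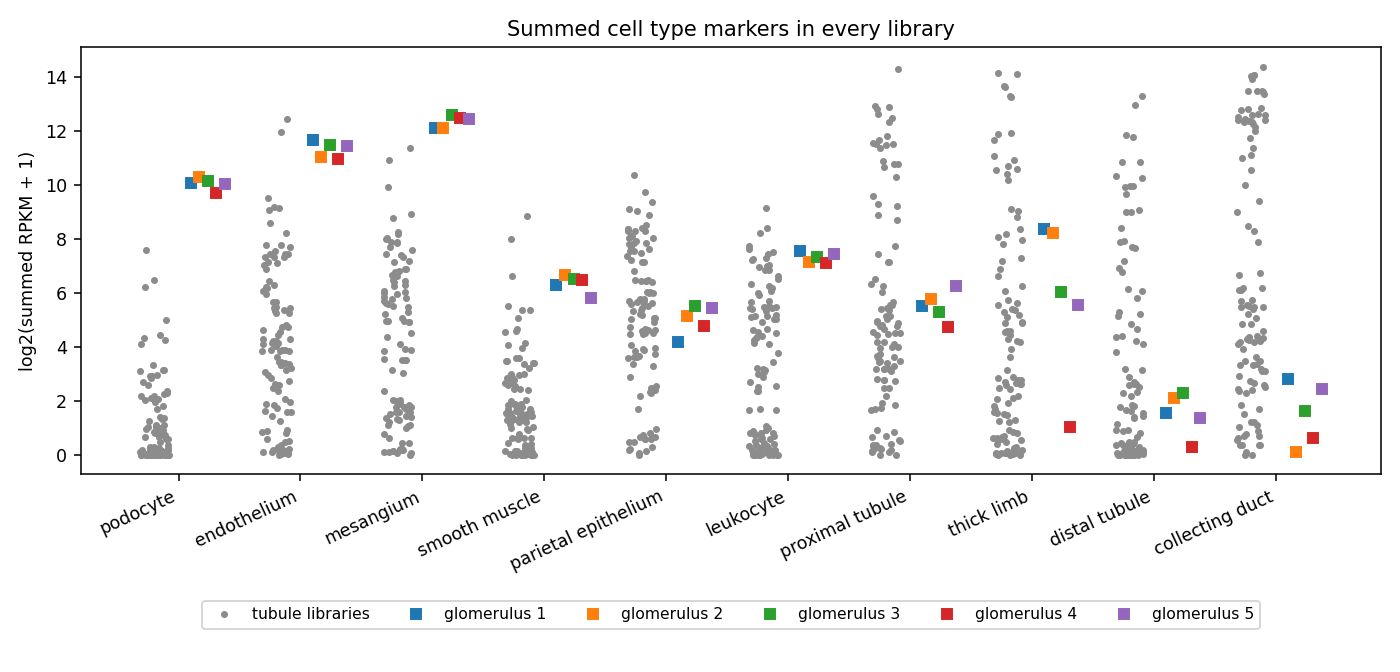
Summed RPKM of the markers of 10 cell types, as log2(sum + 1), in each tubule library (grey points) and each glomerulus library (coloured squares). Podocyte and mesangial sums of all 5 glomeruli lie above every tubule library; the 2 highest endothelial points among tubules are tAL 1 (5578) and tAL 2 (3978).

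Podocyte genes were higher in glomeruli in most cases. Over 4 lists (slit diaphragm, surface and adhesion, cytoskeleton, transcription factors), 44 of 63 tested genes (69.8%, against 37.7% of all genes) were higher by limma and 0 lower, with 51 higher and 0 lower at an unadjusted p under 0.05, and a median difference of 3.39 against 1.32 for all genes. After quantile normalization 36 (57.1%, against 9.03%) were higher and 0 lower (median 1.88 against -0.13). By the selective rule, 31 of the 63 qualified, where 7.71% of all genes did.

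At the slit diaphragm, 12 of 20 tested genes were higher in glomeruli (60.0%, against 37.7% of all genes), and 10 after quantile normalization (50.0%, against 9.03%). Nphs1 read 178, 243, 235, 93.4 and 287 RPKM in glomeruli 1 to 5, against a tubule median of 0 and maximum of 30.5. The groups do not overlap, and glomerulus 4 was the lowest of the 5. Kirrel2 encodes filtrin, a nephrin relative. It read 14.3 to 23.7 RPKM in glomeruli and at most 0.0761 in tubules. Ptpro encodes a receptor phosphatase of podocytes and read 210 to 354 RPKM, above the tubule maximum of 46.4. The kinase Fyn, which phosphorylates nephrin, and the phospholipase Plce1 also lay above all tubule libraries, with differences of 5.94 and 3.97. Magi2 and Tjp1, scaffold proteins of the junction, were higher (3.48 and 4.54) with 2 and 5 tubule libraries reaching the lowest glomerulus. The call was not reached for 8 list members. Among these, Cd2ap, an adaptor between nephrin and actin, spread from 13.2 to 103 RPKM in glomeruli within a tubule range of 0 to 523 (difference 1.85 ± 1.05 SE, adjusted p = 0.142), and the channel gene Trpc6 stayed at or under 2.04 RPKM in all 5 glomeruli (adjusted p = 0.43).

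Of 16 podocyte surface genes, 12 were higher (75.0%, against 37.7% of all genes), and 11 after quantile normalization (68.8%, against 9.03%). Sema3g, a secreted semaphorin, read 235, 399, 367, 358 and 376 RPKM against a tubule maximum of 91.2 (difference 7.89). Clic5, an intracellular channel relative that anchors the ezrin and podocalyxin complex, read 42.0 to 97.2 RPKM and at most 7.47 in tubules. Robo2, the receptor for slit ligands, read 19.1 to 44.8 RPKM and at most 8.82. These 3 did not overlap the tubules. Pdpn (podoplanin) and Slc9a3r2, the scaffold that links podocalyxin to ezrin, were higher by 6.69 and 7.15, each with 1 tubule library (tAL 7 and tAL 2) at or above the lowest glomerulus. Ezr, Mme, Sdc4 and Cdh13 did not pass; Mme, a peptidase that proximal tubule cells also carry, read 2.98 to 19.2 RPKM in glomeruli and up to 238 in tubules.

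In the cytoskeleton list, 10 of 15 genes were higher (66.7%, against 37.7% of all genes), and 8 after quantile normalization (53.3%, against 9.03%). Vim, the intermediate filament protein vimentin, read 1673, 1664, 1422, 877 and 1891 RPKM, and the highest tubule library reached 822 (SDL 3), so the groups separate narrowly. It was not selective, since SDL had a mean of 435 ± 269 RPKM (SD, n = 10). Nes (nestin) read 86.3 to 155 RPKM against a tubule maximum of 70.6. Actn4 and Myo1e, an actin crosslinker and a myosin of foot processes, were higher by 3.89 and 4.07. Synpo, which encodes synaptopodin, was low at 1.24 to 3.42 RPKM. Its difference of 1.57 passed as deposited, and the value after quantile normalization, 0.23, did not.

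Of 12 genes for podocyte regulators, 10 were higher (83.3%, against 37.7% of all genes), and 7 after quantile normalization (58.3%, against 9.03%). Wt1 read 251, 304, 240, 203 and 292 RPKM against a tubule maximum of 16.6, in S3 5 (difference 7.90 ± 0.24 SE, adjusted p = 4.17e-56). The forkhead factor Foxc2 (14.6 to 69.5 RPKM), the helix-loop-helix factor Tcf21 (14.2 to 29.4) and the ligand gene Efnb1 (89.0 to 253) lay above all tubule libraries too. Foxd1, a forkhead factor of stromal and podocyte precursors, read 4.96, 21.1, 13.0, 17.1 and 74.3 RPKM and at most 0.133 in tubules. Cdkn1c, a cell cycle inhibitor, was higher by 6.22, with 3 tubule libraries in the range of the glomeruli. In this list, glomerulus 5 was the highest of the 5 libraries for 8 of 12 genes, against 26.5% of all tested genes.

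**Figure D3:**
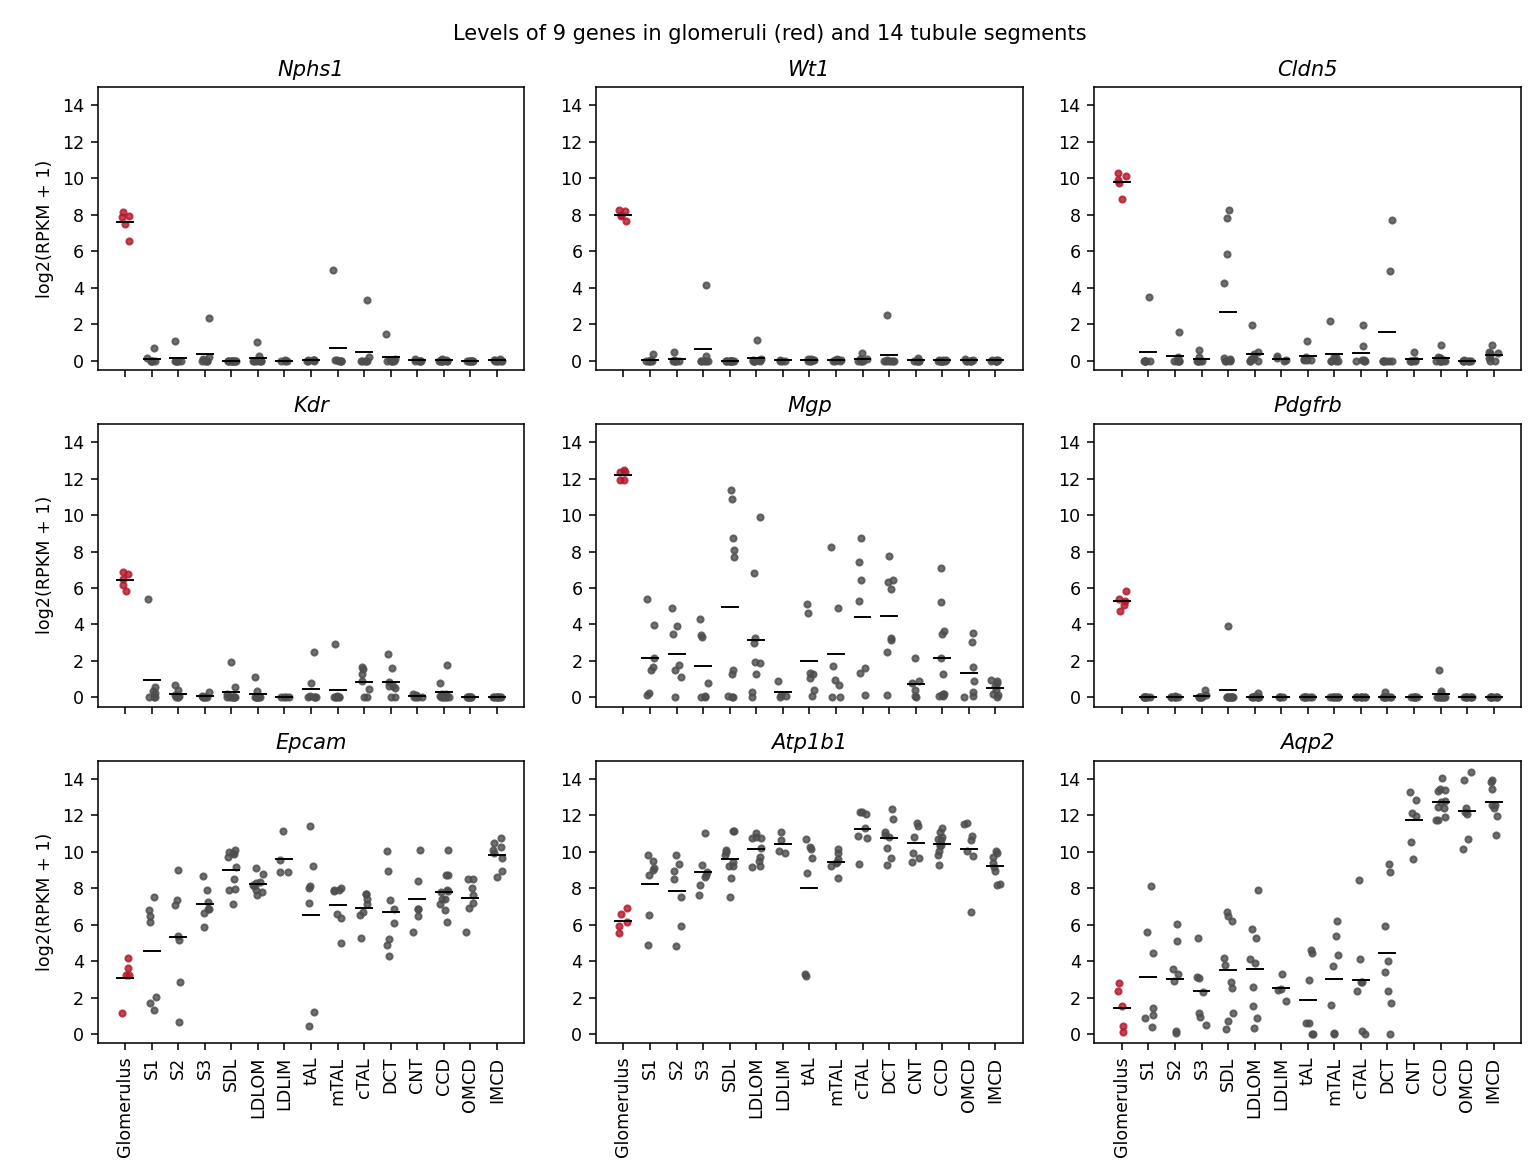
Levels of 9 genes as log2(RPKM + 1) in each of the 5 glomerulus libraries (red) and the libraries of 14 tubule segments (grey), with the group mean of the log2 values as a bar. Nphs1, Wt1, Cldn5, Kdr, Mgp and Pdgfrb lie higher in all 5 glomeruli than in any tubule library; Epcam, Atp1b1 and Aqp2 lie low in the glomeruli but within the tubule range.

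All 29 tested genes of the endothelial list were higher in glomeruli, where 37.7% of all genes were, with a median difference of 5.13. After quantile normalization 24 were higher (82.8%, against 9.03%). By the selective rule, 23 of the 29 qualified as deposited, where 7.71% of all genes did. Cldn5, a claudin of capillary junctions, read 853, 1105, 955, 473 and 1263 RPKM against a tubule maximum of 309, in SDL 5 (difference 9.28 ± 0.66 SE, adjusted p = 1.45e-24). Ehd3, an endocytic recycling protein known from glomerular capillaries, read 453, 286, 436, 531 and 541 RPKM, and at most 74.2 in tubules. Kdr read 119, 55.6, 106, 88.4 and 69.7 RPKM, and its highest tubule value was 41.1, in S1 3. Gata5, a zinc finger factor of glomerular endothelium, read 19.6, 32.1, 53.9, 26.3 and 99.3 RPKM where no tubule library exceeded 0.501. Robo4 and Aplnr, an adhesion receptor and the apelin receptor, also lay above all tubule libraries. Glomerulus 2 was the lowest of the 5 for 15 of the 29 genes, against 22.1% of all tested genes.

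Other endothelial genes were as high or higher in some tubule libraries. Plvap encodes the diaphragm protein of fenestrae, which glomerular fenestrae largely lack in the adult. It read 15.4 to 132 RPKM in glomeruli and reached 5483 in tAL 1, with a tAL mean of 1099 ± 2076 (SD, n = 7). Its difference of 3.46 passed as deposited (adjusted p = 0.00693) and did not pass after quantile normalization or with detected genes as a covariate. The sialomucin Emcn, at 258 to 659 RPKM, and Plat, the tissue plasminogen activator, at 766 to 1643, were exceeded in tAL 2 (2505) and tAL 1 (2877). Tie1 read 67.9 to 144 RPKM (difference 5.51) and Erg 1.36 to 20.9 (2.36), and tAL 2 and tAL 1 held their highest tubule values, 141 and 7.50.

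Mesangial and pericyte genes were higher in 24 of 28 cases (85.7%, against 37.7% of all genes), with a median difference of 4.86. Quantile normalization left 18 higher (64.3%, against 9.03%), and as deposited 18 were selective, where 7.71% of all genes were. Thy1, a surface antigen of rat mesangial cells, read 285, 212, 186, 169 and 119 RPKM and no more than 4.88 in any tubule library (difference 7.49 ± 0.17 SE, adjusted p = 1.29e-69). Ptn encodes pleiotrophin, a heparin-binding growth factor. It read 1457, 806, 1514, 910 and 1335 RPKM against a tubule maximum of 267. The small homeodomain protein gene Hopx (340 to 669 RPKM), the natriuretic peptide clearance receptor gene Npr3 (49.4 to 96.8), desmin (Des, 67.3 to 188) and the protease inhibitor gene Serpine2 (19.4 to 41.0) also did not overlap the tubules. Mgp differed widely between tubule libraries, with a median of 1.54 RPKM over all of them and a maximum of 2671 in SDL 7. The SDL mean was 546 ± 942 RPKM (SD, n = 10), and Mgp still had the largest difference of the list at 9.88. Pdgfra, Ptgfr, Itga1 and Dcn did not pass. Pdgfra, the receptor of interstitial fibroblasts, was at most 0.383 RPKM in glomeruli, and Dcn, which encodes the matrix proteoglycan decorin, at most 4.50.

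Genes of the arterioles were mostly higher as well. Of 15 genes of arteriolar smooth muscle and juxtaglomerular cells, 13 were higher (86.7%, against 37.7% of all genes). With quantile normalization 9 were (60.0%, against 9.03%). Gja5, a connexin of endothelium and juxtaglomerular cells, read 242, 136, 167, 126 and 77.6 RPKM and at most 25.4 in tubules. Its partner Gja4 (84.0 to 148 RPKM) overlapped with SDL 5 at 292. Rgs4, a regulator of G protein signalling, and Cnn1, the contractile protein calponin, were low (6.09 to 15.8 and 1.22 to 7.51 RPKM) but above all tubule libraries. Acta2, smooth muscle actin, did not pass, at 0.0164 to 1.20 RPKM in glomeruli (adjusted p = 0.34).

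Parietal epithelial genes were mostly not higher. Of 12 tested, 3 (25.0%, under the 37.7% of all genes) were higher and 1 lower (8.33%, against 1.19%) as deposited. After quantile normalization 1 was higher (8.33%, against 9.03%) and 6 lower (50.0%, against 5.32%). Vcam1, an adhesion molecule of parietal cells and of activated endothelium, was higher (13.8 to 34.4 RPKM, difference 4.02). Cd24, a surface protein of immature epithelium, was lower, at 90.0, 17.1, 74.1, 30.7 and 36.5 RPKM against a tubule median of 501 (difference -2.76, adjusted p = 0.000491). Pax8, a nephron lineage factor, read 8.83 to 18.5 RPKM against a tubule median of 28.7 and up to 799. The keratin gene Krt8 read 6.03 to 16.5 against a median of 54.3. These 2 did not pass as deposited and were called lower after quantile normalization.

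Of 19 basement membrane and matrix genes, 12 were higher (63.2%, against 37.7% of all genes). Quantile normalization left 10 (52.6%, against 9.03%). Sparc encodes a collagen-binding matrix protein. It read 3366, 3295, 2610, 1631 and 1310 RPKM and lay above the tubule maximum of 1047 (difference 7.28). Lamb2, the laminin chain of the mature glomerular membrane, read 138 to 332 RPKM and was higher by 4.46. Agrn, a heparan sulfate proteoglycan, was higher by 3.26, with 22 tubule libraries in the range of the glomeruli. Lamb2 and Agrn fell short of the call with detected genes as a covariate. Col4a1, an early collagen IV chain, and Lama5 were higher by 3.61 and 3.22. Col4a3 and Col4a4 encode collagen IV chains that the podocyte lays down. They read only 0.486 to 2.47 and 1.01 to 3.74 RPKM in glomeruli and did not pass (adjusted p = 0.139 and 0.548), and LDLIM had more Col4a3 (7.84 ± 2.15 RPKM, SD, n = 4).

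Of 34 tested genes whose mutation causes nephrotic syndrome or related glomerular disease, 20 were higher in glomeruli (58.8%, against 37.7% of all genes). With quantile normalization 17 were (50.0%, against 9.03%). As deposited 13 were selective, where 7.71% of all genes were, and several of the 34 are podocyte genes above. Emp2, a membrane protein, read 78.2, 77.9, 108, 91.7 and 90.0 RPKM, above all tubule libraries, though IMCD held 25.3 ± 17.7 (SD, n = 8). Crb2, a polarity protein of the slit region, read 27.2 to 90.8 RPKM (difference 5.19). The 14 that did not pass included Coq2 and Coq6, which make coenzyme Q in all mitochondria, at 3.94 to 19.1 and 11.3 to 15.5 RPKM within the tubule range. Itgb4, an integrin of stratified epithelium, was at most 1.73 RPKM.

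**Figure D4:**
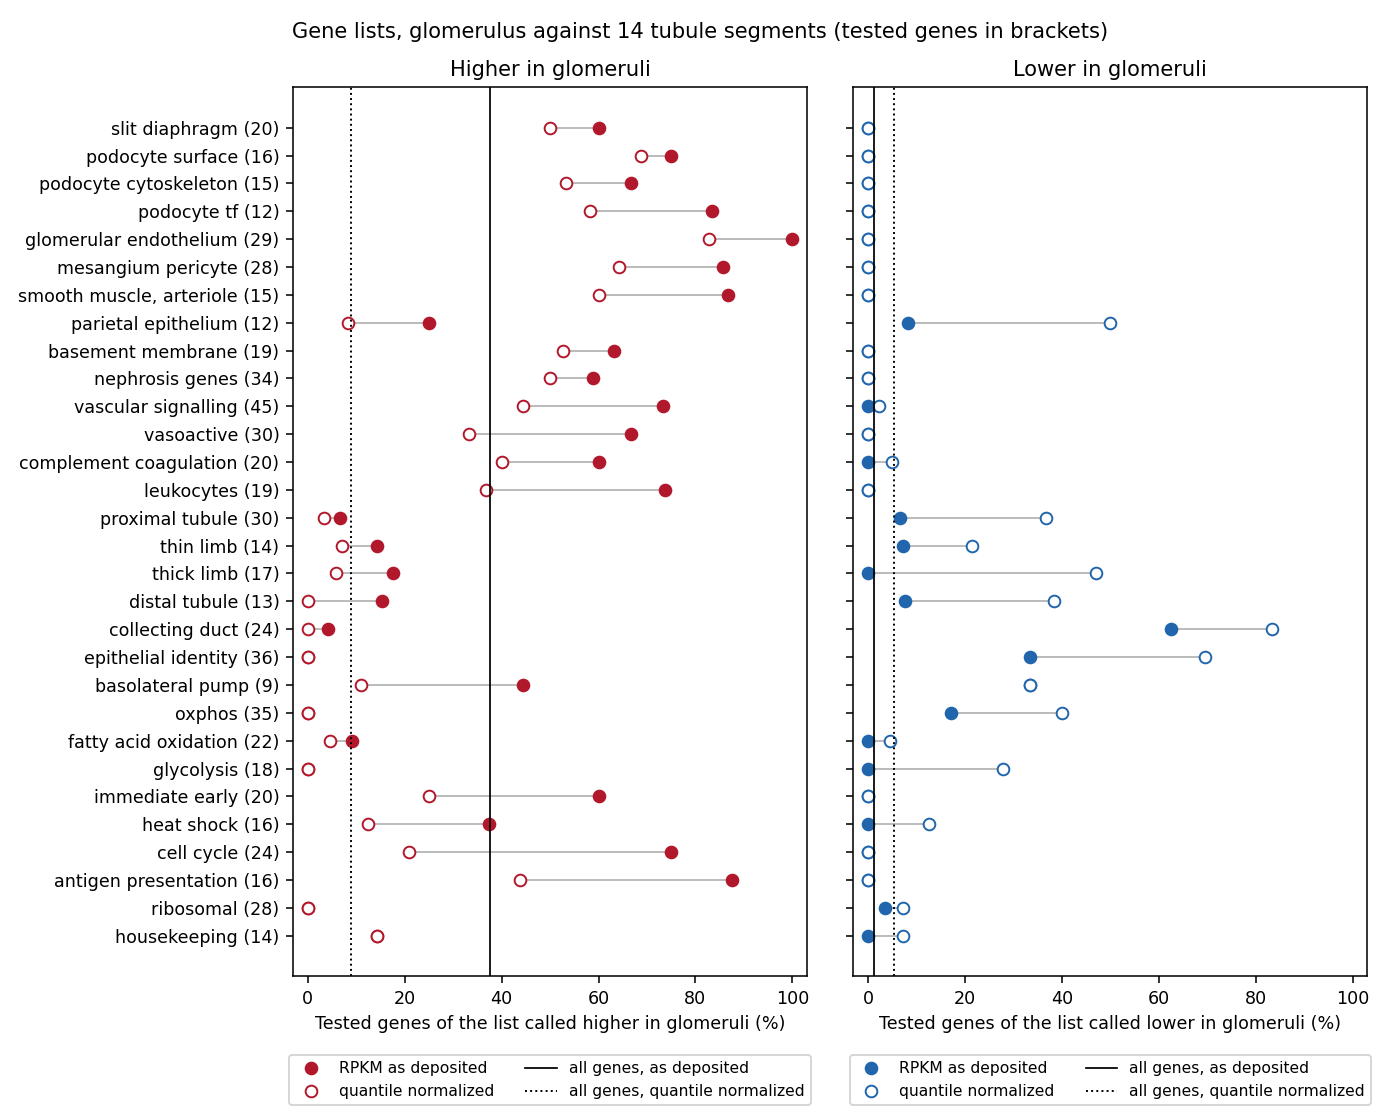
Share of the tested genes in each of 30 lists (number tested in brackets) called higher (left) or lower (right) in glomeruli, as deposited (filled) and after quantile normalization (open). Vertical lines give the share over all 11456 genes, 37.7% and 9.03% for higher and 1.19% and 5.32% for lower. The podocyte, endothelial and mesangial lists stand right of both lines for higher, and collecting duct and epithelial identity lists stand right of both for lower.

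Ligands and receptors that pass signals between these cells were next. Of 45 in the vascular signalling list, 33 were higher (73.3%, against 37.7% of all genes). Quantile normalization left 20 higher (44.4%, against 9.03%), with 1 lower. Among receptors, Flt1 and Tek, the endothelial receptors for vascular endothelial growth factor and angiopoietins, read 12.4 to 30.6 and 24.4 to 77.1 RPKM (differences 4.13 and 5.13). Ramp2, the partner of the adrenomedullin receptor, read 164 to 490 (6.34). Among ligands, Vegfa, the growth factor that podocytes send to the capillaries, read 2.91, 10.1, 32.0, 2.45 and 19.1 RPKM. It was thus lowest in glomeruli 4 and 1. Its difference of 2.53 passed as deposited and not after quantile normalization (0.68), and 18 tubule libraries reached the lowest glomerulus. Edn1 (endothelin), Adm (adrenomedullin) and Angptl2 were higher by 5.13, 6.32 and 6.11. The ligand genes Vegfb and Pdgfb did not pass, at 0.68 to 3.07 and 0 to 2.32 RPKM. For Pdgfb the adjusted p was 0.0231, and the difference of 0.49 was under the limit of 1.

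Of 30 vasoactive genes, 20 were higher as deposited (66.7%, against 37.7% of all genes) and 10 after quantile normalization (33.3%, against 9.03%). The median differences were 2.03 and 0.22. Agtr1b, an angiotensin receptor gene of rodents, read 87.8, 50.8, 111, 44.5 and 71.2 RPKM against a tubule maximum of 13.8 (difference 6.05 ± 0.19 SE, adjusted p = 9.31e-55). Its near copy Agtr1a read 36.1 to 76.6 RPKM, with 500 in OMCD 1, and the counting of reads shared by both copies is not given in the sources used. Npr1, the atrial natriuretic peptide receptor, and Nos3, endothelial nitric oxide synthase, were higher by 5.19 and 5.29. Ptger4, a prostaglandin E2 receptor, was higher by 3.88 and selective over DCT (17.1 ± 24.3 RPKM, SD, n = 8). Avpr1a, the vascular vasopressin receptor, was listed at 0 in glomeruli 1 to 3 and at most 0.428, and did not pass (adjusted p = 0.233).

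Of 20 complement and coagulation genes, 12 were higher (60.0%, against 37.7% of all genes). Quantile normalization left 8 higher (40.0%, against 9.03%), with 1 lower. Cd55, which speeds decay of complement convertases, read 57.7 to 171 RPKM, and Thbd, thrombomodulin, 40.4 to 157 (differences 6.28 and 6.01). Each overlapped 1 tubule library, tAL 1 and tAL 2. Serping1, the C1 inhibitor, was higher by 5.21. Cd59, the inhibitor of the membrane attack complex, read 193 to 353 RPKM against a tubule median of 282 and did not pass. Plau, the urokinase gene, read 28.1, 5.94, 0.102, 4.66 and 1.24 RPKM and did not pass as deposited (-1.25).

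Genes of leukocytes were present at modest levels. Of 19 tested, 14 were higher (73.7%, against 37.7% of all genes), 7 after quantile normalization (36.8%, against 9.03%), and 2 were selective, where 7.71% of all genes were. C1qa, of resident macrophages, read 80.1, 37.9, 63.2, 77.2 and 45.5 RPKM, and DCT held 43.9 ± 36.7 (SD, n = 8). Cd68 read 17.0 to 53.5 RPKM and Lyz2, lysozyme, 143 to 246. Ptprc, the pan-leukocyte antigen CD45, was listed at 0 in 2 glomeruli and at most 4.29. The 5 leukocyte markers summed to 136 to 186 RPKM, inside the tubule range of 0 to 563. Of 16 antigen presentation genes, 14 were higher (87.5%, against 37.7% of all genes) and 7 after quantile normalization (43.8%, against 9.03%). B2m read 495 to 960 RPKM and Cd74 378 to 1029, and the class II gene RT1-Da was higher by 4.18. Genes of the RT1 region are closely related, and their values are uncertain where reads were shared. The part of leukocytes in these values was not tested.

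Epithelial genes were lower in glomeruli or did not pass. Epcam read 8.36, 11.5, 8.48, 1.24 and 17.1 RPKM, where the tubule libraries had a lowest value of 0.344, a median of 218 and a highest of 2733. The groups overlap in the few tubule libraries that are low (difference -4.32 ± 0.80 SE, adjusted p = 4.33e-06). Of 36 epithelial identity genes, 0 were higher by limma (0 at an unadjusted p under 0.05) and 12 lower as deposited (33.3%, against 1.19% of all genes). After quantile normalization 25 were lower (69.4%, against 5.32%). Cdh16, a kidney cadherin, read 19.2 to 40.8 RPKM against a tubule median of 262. The tight junction gene Cldn4 (at most 3.23 RPKM, median 36.4), the factor Elf3 (at most 8.31, median 51.9) and the protease inhibitor Spint2 (3.67 to 23.1, median 81.7) were lower by -3.52, -3.56 and -2.85. Cdh1, E-cadherin, read 0.309 to 11.9 RPKM against a median of 16.5. It did not pass as deposited (adjusted p = 0.103) and was called lower after quantile normalization.

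Of the 30 lists, that of the collecting duct had the largest share of lower calls, 15 of 24 genes (62.5%, against 1.19% of all genes). After quantile normalization 20 were lower (83.3%, against 5.32%). Aqp2, the vasopressin-regulated water channel, read 5.88, 0.0636, 1.91, 0.341 and 4.16 RPKM in glomeruli against 8180 ± 5115 in IMCD (SD, n = 8). Other segments are low in it too, so the difference from the mean of all 14 segments was -4.26 ± 0.96 SE (adjusted p = 0.000179). Aqp3 and Fxyd4 were at most 0.177 and 0.258 RPKM, and Avpr2, the vasopressin receptor that drives Aqp2, at most 0.548. Car2, carbonic anhydrase, read 6.71 to 42.4 RPKM against a tubule median of 252 (-3.01). Gata2, in the list as a regulator of Aqp2 and known in endothelium too, was the 1 member higher in glomeruli, at 13.8 to 38.5 RPKM (3.00); after quantile normalization it did not pass.

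Markers of single segments gauge the tubule RNA in the glomerulus libraries. In all 5 marker lists of segments together, 10 of 96 tested genes were higher (10.4%, against 37.7% of all genes) and 19 lower (19.8%, against 1.19%). After quantile normalization 3 were higher (3.1%, against 9.03%) and 45 lower (46.9%, against 5.32%). The 5 proximal markers summed to 44.7, 54.0, 38.1, 25.5 and 76.1 RPKM in glomeruli 1 to 5, against medians of 1755 in S1 and 5108 in S2. Thick limb RNA was uneven. Umod, the thick limb protein uromodulin, read 276, 271, 57.7, 0.457 and 42.8 RPKM, and cTAL held 10708 ± 5978 (SD, n = 7). Slc12a1, the thick limb cotransporter, read 49.5, 25.5, 6.61, 0.586 and 3.51 RPKM. Both were high in glomeruli 1 and 2 and lowest in glomerulus 4, and neither passed as deposited. Distal and collecting duct sums were at most 3.93 and 6.03 RPKM.

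Some tubule-named genes were higher in glomeruli. Gatm, the first enzyme of creatine synthesis, read 162, 75.0, 73.2, 92.3 and 151 RPKM. This exceeded the mean of the 14 segments by 3.96, but S1 held 2097 ± 1911 (SD, n = 7). Lrp2, the endocytic receptor megalin, read 11.1 to 20.8 RPKM and passed as deposited (2.79) and not after quantile normalization (0.56). Pth1r, the parathyroid hormone receptor, read 100.2, 183, 187, 106 and 219 RPKM, near the S2 mean of 264 ± 261 (SD, n = 7), and was higher by 4.27. Kap, an androgen-regulated kidney protein, was lower, at 0 to 7.14 RPKM against 15376 ± 11132 in S3 (SD, n = 7). Ggt1, a brush border enzyme, was lower by -2.68. The water channel Aqp1 and the inositol enzyme Miox did not pass as deposited, and glomerulus 5 had the most of both, at 31.4 and 32.3 RPKM.

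Sodium pump genes were called in both directions. Atp1b1, its main beta subunit, read 94.9, 120.2, 69.9, 44.9 and 60.2 RPKM against a tubule median of 905, and was lower by -3.42 ± 0.61 SE (adjusted p = 1.86e-06). Fxyd2, its gamma subunit, read 52.4, 114, 41.0, 13.7 and 17.8 RPKM, and the tubule libraries ran from 42.5 to 23471 with a median of 2396. It was lower than in each of the 14 segments (difference -6.00 ± 0.52 SE, adjusted p = 3.5e-19). Fxyd5, another regulator, was higher, at 40.6 to 68.0 RPKM (4.27). In the list of 9, 4 were higher and 3 lower (44.4% and 33.3%, against 37.7% and 1.19% of all genes). With quantile normalization these were 1 and 3 (11.1% and 33.3%, against 9.03% and 5.32%).

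In oxidative phosphorylation, 0 of 35 tested subunits were higher by limma (0 at an unadjusted p under 0.05). As deposited 6 were lower (17.1%, against 1.19% of all genes), and 14 after quantile normalization (40.0%, against 5.32%). Cox4i1, a subunit of cytochrome oxidase, read 302, 531, 551, 494 and 616 RPKM against a tubule median of 1518 (difference -1.43). Cox5b, Cox8a and Cox6a1 of the same complex, and Atp5g1 and Atp5o of ATP synthase, were lower by -1.80, -1.90, -1.10, -2.28 and -1.54. With detected genes as a covariate 4 of the 35 were lower, and neither Cox4i1, Cox8a, Cox6a1 nor Atp5o passed. Fatty acid oxidation had 2 of 22 genes higher (9.09%, under the 37.7% of all genes). Quantile normalization gave 1 higher and 1 lower (4.55% each, against 9.03% and 5.32%). Cpt1a, which carries fatty acids into mitochondria, was higher by 2.43 as deposited and did not pass after quantile normalization. Of 18 glycolysis genes none passed as deposited by limma (0 higher and 1 lower at an unadjusted p under 0.05). With quantile normalization 5 were lower (27.8%, against 5.32%). Of 28 ribosomal protein genes, Rplp1 was lower (-1.30) and no other passed as deposited, with a median of 0.28 for the list; 2 were lower after quantile normalization.

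Genes of the immediate early response separated 1 glomerulus from the other 4. Fos read 336, 144, 484, 213 and 2682 RPKM and Egr1 85.7, 66.9, 114, 89.2 and 661. Dusp1, a phosphatase, read 43.8, 61.3, 105, 34.4 and 515, and Nr4a1, a nuclear receptor, 14.6, 21.2, 35.2, 17.0 and 150. In this list glomerulus 5 was the highest of the 5 libraries for 17 of 20 genes, against 26.5% of all tested genes. The tubule libraries cover the same span, with Fos at 0.0702 to 3866 RPKM and a median of 160. Of the 20 genes, 12 were higher in glomeruli as deposited (60.0%, against 37.7% of all genes) and 5 after quantile normalization (25.0%, against 9.03%). With detected genes as a covariate 4 of the 20 were higher, where 14.2% of all genes were. Klf2 and Klf4, shear-responsive factors of endothelium, were higher in each of the 3 fits (5.10 and 5.15 as deposited). Fos did not pass in any of the 3 (adjusted p = 0.0604 as deposited). Ctgf, a matrix-associated growth factor, followed the same library, at 147, 233, 163, 55.4 and 995 RPKM. Glomerulus 5 also had the lowest smooth muscle marker sum (54.4 RPKM, others 76.6 to 99.0) and the highest proximal sum (76.1, others 25.5 to 54.0). In the other 8 marker sums, podocyte, endothelial and mesangial among them, it lay within the range of the other 4. It was the lowest of the 5 for 11 of 28 mesangial genes and 7 of 15 smooth muscle and juxtaglomerular genes, against 19.9% of all tested genes.

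**Figure D5:**
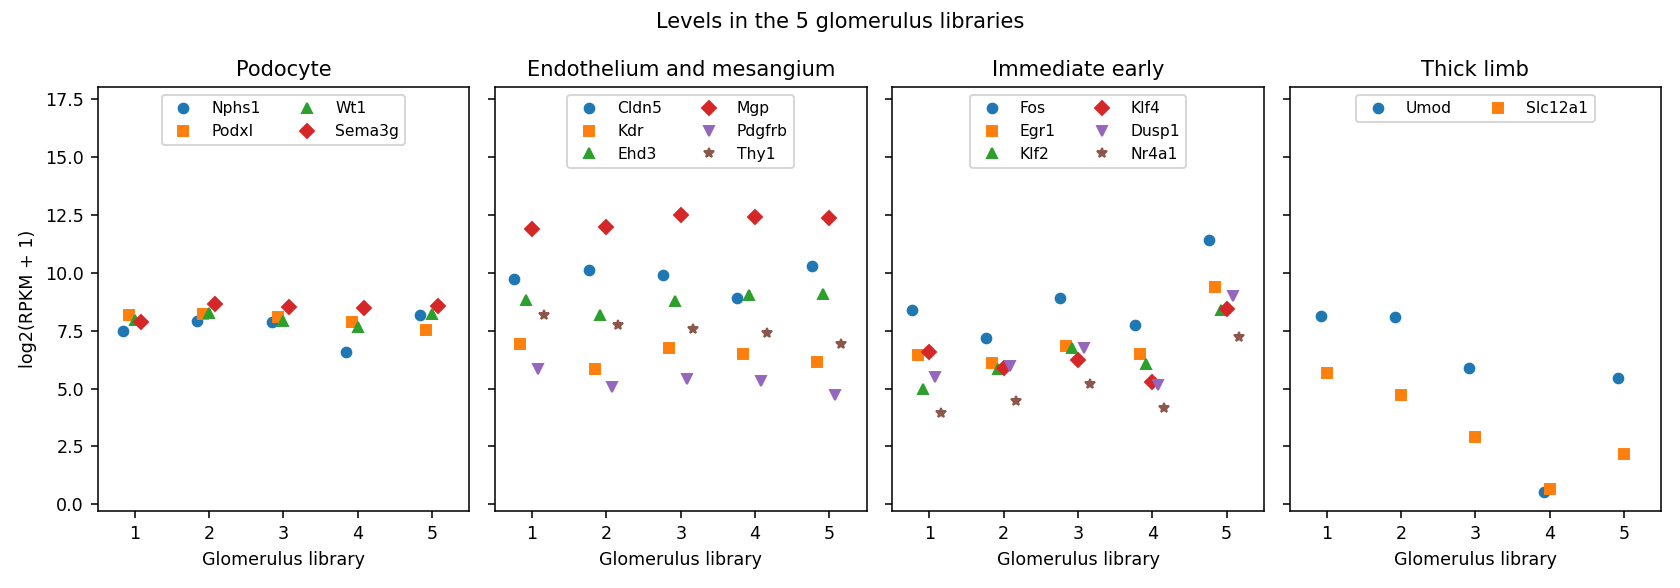
Levels in each of the 5 glomerulus libraries as log2(RPKM + 1), for podocyte, endothelial and mesangial, immediate early and thick limb genes (1 symbol a gene). All 6 immediate early genes are highest in glomerulus 5; Nphs1 is lowest in glomerulus 4 (93.4 RPKM), and both thick limb genes are highest in glomeruli 1 and 2.

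Heat shock genes were near the share of all genes, with 6 of 16 higher as deposited (37.5%, against 37.7%). After quantile normalization 2 were higher and 2 lower (12.5% each, against 9.03% and 5.32%). Hspb1, a small heat shock protein, read 12.9, 390, 355, 14.3 and 607 RPKM, so glomeruli 1 and 4 were the low pair, as for Vegfa. Hspa5, the chaperone of the endoplasmic reticulum, read 144 to 876 RPKM and was higher by 3.17. Neither passed with detected genes as a covariate. Of 24 cell cycle genes, 18 were higher as deposited (75.0%, against 37.7% of all genes), all at low levels. Quantile normalization left 5 higher (20.8%, against 9.03%). Ccnd2, a G1 cyclin, read 6.31 to 37.3 RPKM (4.01) and Aurkb, a mitotic kinase, 4.77 to 19.3 (3.17). Mki67 read 0.955 to 6.22 RPKM and was higher by 1.69 as deposited; the sign turned after quantile normalization (-0.11, adjusted p = 0.897).

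Mgp, Cldn5, Ptn and Wt1, of the podocyte, endothelial and mesangial lists, were among the 10 largest differences without overlap. Mmp9, a gelatinase, read 650, 189, 492, 269 and 371 RPKM and at most 31.9 in tubules (8.38). Pcolce, an enhancer of procollagen processing, read 402 to 725 RPKM (7.93). The largest were 2 widely expressed genes. Atn1, a transcriptional corepressor, read 6645, 6397, 6464, 6985 and 6669 RPKM, and no tubule library exceeded 0.105. Ewsr1, an RNA-binding protein, read 6999, 6361, 6360, 6462 and 5014 RPKM, and at most 9.07 in tubules. Tspan4, a tetraspanin, read 569 to 914 RPKM and at most 0.0218. The tubule means of these 3 were near 0 in the second table as well (0.00486, 0.276 and 0.00138 RPKM), and their glomerulus values were not compared there. Whether the high glomerulus values of these 3 depend on the table used was therefore not tested.

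By margin over the next highest segment, the 10 leading selective genes included Atn1, Ewsr1, Tspan4, Mmp9, LOC100911576, Wt1, Mgp, Foxs1 and Tnnc1. Foxs1, a forkhead factor of pericytes, read 217, 176, 196, 161 and 159 RPKM and at most 2.81 in tubules, a margin of 7.18 in log2(RPKM + 1). LOC100911576, a locus without a given function, spread from 51.6 to 1000.3 RPKM between glomeruli. Tnnc1, the troponin C of slow muscle, read 498, 876, 751, 763 and 286 RPKM but overlapped the tubules, with 454 in SDL 1. For the 883 selective genes, the next segment was most often tAL (165 genes), SDL (119) or DCT (102), and least often OMCD (15). The tAL and SDL means include the libraries with high endothelial or mesangial sums (tAL 1, tAL 2, SDL 2 and SDL 7).

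At the other end, Mrpl1, Cpne1 and Pex19 were lowest in glomeruli by the table used here. Their tubule values differ between the 2 deposited tables. Mrpl1 read 0.460 to 1.20 RPKM against 4263 to 31556. Cpne1 was at most 0.167 and Pex19 read 2.59 to 8.01 RPKM, against tubule minima of 28.8 and 137. The tubule means in the table used here were 12291, 625 and 1313 RPKM, and in the second one 0.733, 0.00403 and 5.31. Each second mean lies within the range of that gene's glomerulus values, so these calls rest on the table used. For Fxyd2, also lowest in glomeruli, the means were 3658 and 5322. Over all tested genes, 8.74% differed more than 4-fold between the tables, and among the 136 called lower 5.88%. Of the 5 genes lowest in glomeruli, 4 (80%) differed so, as did all 4 called lower without overlap. Without the genes that differed, 3994 of 10455 genes were higher, 127 lower, 799 selective and 1 lowest.

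The 5 glomeruli were alike as libraries. Across tested genes, which are not independent replicates, their 10 pairs correlated at 0.860 to 0.927 in log2(RPKM + 1) (median 0.882), while the median over pairs within a segment was 0.436 in tAL to 0.735 in cTAL. The median spread around the group mean was 0.595 (SD, log2) in glomeruli and 1.50 in tubules. The glomerulus mean was most like the means of tAL and SDL (r = 0.714 each) and least like S3 (0.520). The values between libraries share depth and the number of detected genes, so this order is a description. The tAL and SDL means include tAL 1, tAL 2, SDL 2 and SDL 7, whose endothelial or mesangial sums exceeded 1000 RPKM. The part of these libraries in the order was not tested.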

How the data were processed

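The authors deposited RPKM values per RefSeq transcript, and the labels describe paired 50 nt reads of libraries made by a single-cell protocol. Trimmomatic 0.32, HOMER, SAMtools, STAR 2.3.0-r192 and build rn5 are listed in the submitters' processing notes. The glomerulus columns of the second segment table (5) were not used. In the table used, 12 of 12 blocks of rows matched between glomeruli and tubules best without a shift. Of 17974 entries, 9 have no glomerulus value. For 502 symbols with several transcripts, the one with the highest mean level was used.

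Values were tested as log2(RPKM + 1) in 1 fit of 110 libraries with 15 group means (limma 3.58.1, trended moderated test, R 4.3.3, two-sided, Benjamini-Hochberg adjusted), with the contrast glomerulus minus the unweighted mean of 14 segment means, so that each segment counts once. Genes needed 1 RPKM in at least 4 libraries. Differences on this scale understate the change of low genes, and the depth in counts is unknown. The script was tested on simulated data. Named are the 10 largest differences in each direction without overlap, the 10 selective genes with the largest margin, Podxl, Pdgfrb and Mgp, and about 6 members of each of 30 lists (650 memberships tested), called members first. Trpc6, Cd2ap, Ctgf, Umod and other members outside that order were chosen after their values were seen. Some genes that the rule names are not reported here; they count in the fits and list counts and were left out of the marker sums and plots of single genes. The glomeruli, lists and rule were chosen with earlier results of these data known. Promoters are from RefSeq (GRCr8). Tables and plots were made with pandas 2.3.3, matplotlib 3.10.9 and numpy 2.4.6 under Python 3.11.15. Alternatives are in the closing section, of which 2 were chosen after seeing the data.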

Additional observations from a re-analysis of the deposited data

Results flagged for a closer look

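The 5 glomerulus values of 145 named genes were searched for a library set apart from the other 4. The rule was a gap over range above 0.71, Dixon's limit for 5 values. For normally distributed values, chance alone sets apart about 1 group in 20. The search used RPKM without a log scale, and part of the named genes had been picked with knowledge of their levels. The number found can therefore not be compared with that rate. Such a library was found for 18 genes, and 14 of these point to glomerulus 5. There, immediate early and related genes stood high: Fos at 2682 RPKM (others up to 484), Egr1 at 661 (up to 114), Dusp1 at 515 (up to 105), Klf4 at 348 (up to 95.0), Klf2 at 339 (up to 107), Nr4a1 at 150 (up to 35.2) and Ctgf at 995 (up to 233). Podocyte and matrix genes did as well: Cdkn1c at 228 RPKM (others up to 101), Agrn at 148 (up to 70.8), Crb2 at 90.8 (up to 45.3) and Foxd1 at 74.3 (up to 21.1). So did 3 more at low level: Miox at 32.3 RPKM (others up to 4.62), Aqp1 at 31.4 (up to 14.9) and Avpr1a at 0.428 (up to 0.0247).

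Glomerulus 1 stood low in Sema3g, at 235 RPKM where the others read 358 to 399, and in Cox8a, at 29.8 where the others read 95.8 to 121. It stood high in Plau, at 28.1 RPKM (others up to 5.94). Glomerulus 2 stood high in Elf3, at 8.31 RPKM (others up to 2.07).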

How the results depend on the processing

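Scaling changed all 4 counts. The genes higher, lower, selective and lowest in glomeruli numbered 4319, 136, 883 and 5 as deposited. After quantile normalization they were 1034, 609, 341 and 17, and with detected genes as a covariate 1631 higher, 369 lower and 9 lowest (656 selective). With only the 33 tubule libraries of at least 6000 genes, chosen after seeing the data, they were 2280, 528, 383 and 12. Those libraries cover 12 segments, so the latter counts are against 12 segments and not 14. Fitting all tubules as 1 group gave 44 lower and no selective or lowest count, and array weights by tissue gave 291 lower. Leaving out 1 glomerulus gave 3328 to 3494 higher, 72 to 99 lower, 791 to 831 selective and 5 lowest in each case. The lower count was 87, 91, 74, 72 and 99 without glomeruli 1 to 5, so 136 was over 1.5 times the count without glomerulus 1, 3 or 4. Leaving out 1 LDLIM library gave 4261 to 4371, 132 to 141, 824 to 885 and 5. Genes within 4-fold between the tables gave 1 lowest. A pseudocount of 0.1, no filter, all transcripts and leaving out the 14 tubule libraries under 2500 genes kept all 4 counts within 1.5 times. Leaving out the 4 tubule libraries with an endothelial or mesangial marker sum over 1000, chosen after seeing the data, did so too, with 7 lowest.

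Residuals of same-numbered glomerulus and tubule libraries correlated at -0.136 to 0.142 over 69 pairs (1 above 0.1), so the numbers do not pair them. With the replicate number as a block, 4576 genes were higher and 136 lower. Of 122 named genes with a call, 90 kept it under every alternative that tested them. The single sign change was Mki67 after quantile normalization (-0.11). Values carry no read counts, so limits by depth are unknown.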
